A study of Homo sapiens with 5 samples.

Results

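The cyclins and cell-cycle kinases described here are 10 genes, CCND1, CCND2, CCND3, CCNE1, CCNE2, CCNA2, CDK1, CDK2, CDK4 and CDK6, out of 20098 annotated protein-coding genes. They were chosen by name, and every ChIP-Seq peak of Fra-1, MYC or E2F1 that overlapped their promoters, gene bodies or 50 kb flanks was taken. A promoter was a window from 2 kb upstream to 2.5 kb downstream of any annotated transcription start site (TSS) of the gene. The gene body is the rest of the gene, and a flank peak touches neither. These loci held 20 of the 17320 Fra-1 peaks, 17 of the 4867 MYC peaks and 82 of the 36933 E2F1 peaks.

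All libraries came from MDA-MB-231 LM2 cells, a line derived from the MDA-MB-231 breast cancer line that metastasizes to the lung. Chromatin immunoprecipitated with an antibody against Fra-1, MYC or E2F1 was sequenced in 1 library per factor, so there was no replicate spread and no test between factors. Peaks of each factor had been called against 1 input library with MACS2, and fold enrichment is the ratio of the fragment pileup at the peak summit to the local background. Tags kept after removal of duplicates numbered between 12931227 for Fra-1 and 23853621 for MYC, against 10758036 for the input. Intervals below are exact 95% Poisson intervals of the pileup, scaled back to the depth of the ChIP library, and cover counting error only. Fold enrichment was only roughly comparable between factors, since its median over a whole list was lowest for MYC (6.67), followed by Fra-1 (8.24) and E2F1 (8.88).

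D-type cyclins activate the kinases CDK4 and CDK6, which phosphorylate the retinoblastoma protein and thereby release E2F transcription factors. E-type cyclins with CDK2 then drive entry into S phase, cyclin A2 acts with CDK2 and CDK1 through S phase and G2, and CDK1 with B-type cyclins triggers mitosis. E2F1 is a transcription factor of this pathway, MYC binds E-boxes and drives growth and proliferation, and Fra-1 (FOSL1) is a member of the AP-1 family that binds DNA as a dimer with JUN proteins.

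E2F1 had a peak in the promoters of all 10 genes, MYC in those of 4 (CCND1, CCND3, CDK4 and CCNE2), and Fra-1 in none. The background over all protein-coding genes was 61.3% for E2F1, 17.8% for MYC and 13.2% for Fra-1. No member had promoter peaks of all 3 factors, as 4.67% of protein-coding genes did. With every list reduced to the 4867 peaks of largest −log10 q, the length of the MYC list, E2F1 had a promoter peak at 7 of 10 members and at 5161 of the 20098 genes. MYC and E2F1 without Fra-1 were found at 4 of 10 members, against 13.1% of all genes, and E2F1 alone at 6 of 10, against 35.8%. The other peaks of Fra-1 lay within 2 genes and near 6. In the gene body, outside promoter windows, Fra-1 had peaks in CCND3 and CDK6 (2 of 10 members, 17.3% of all genes), E2F1 in CCND1, CCND3 and CDK6 (3 of 10, against 17.8% of all genes), and MYC in none (2.44% of all genes). In the 50 kb flanks, Fra-1 had peaks near 6 members (44.2% of all genes), MYC near 4 (28.7%) and E2F1 near 8 (68.7%). Gene length and the number of genes around differ among the members, and their part in the gene body and flank counts was not tested. CDK6 is 231653 bp long and has 1 protein-coding neighbour within its flanks, whereas CDK2 is 6009 bp long and has 6.

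**Figure D1:**
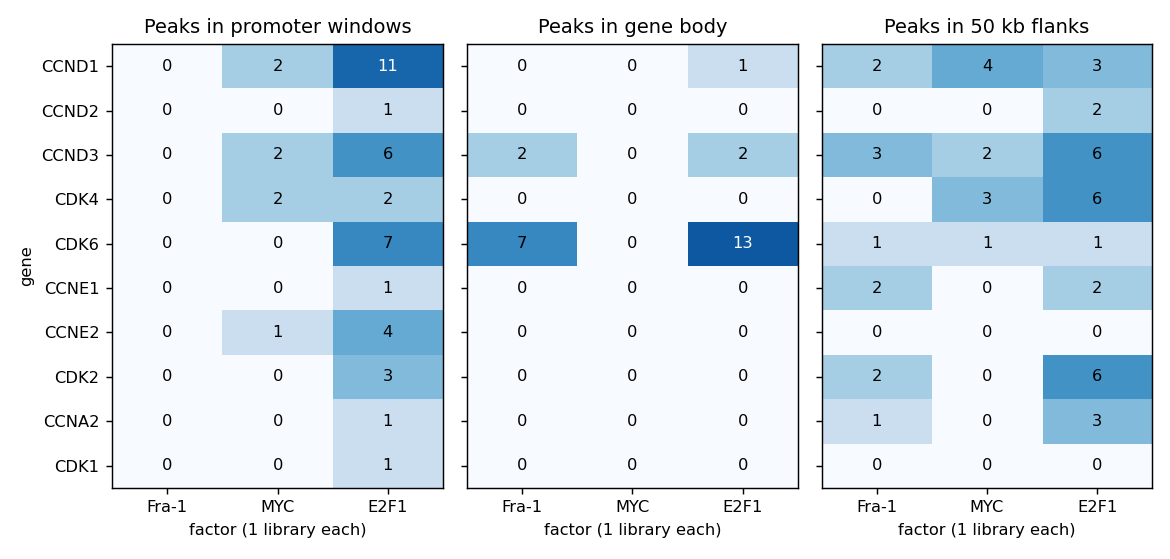
Number of peaks of each factor (columns, 1 library each) at each gene (rows) in the promoter windows, the gene body and the 50 kb flanks, with darker blue for more peaks. The Fra-1 column of the promoter panel holds only 0, while the E2F1 column runs from 1 to 11, and all gene body peaks but 1 fall in CDK6 and CCND3.

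The strength of the strongest E2F1 promoter peak ranged from 9.70 at CCND2 to 66.0 at CCND1, with a median of 33.8. Over the protein-coding genes with an E2F1 promoter peak, the median of the same value was 22.0, with quartiles of 13.4 and 32.5, and 7 of the 10 members lay above that median. From the highest to the lowest, the fold enrichment was 66.0 for CCND1 (57.2 to 76.2), 42.7 for CDK4 (36.8 to 49.0), 40.0 for CDK1 (34.2 to 46.5), 39.1 for CCND3 (33.0 to 45.9) and 37.4 for CCNE2 (31.6 to 44.2). It was 30.1 for CCNA2 (25.5 to 35.2), 25.2 for CDK2 (20.7 to 30.3), 17.1 for CCNE1 (12.5 to 23.3), 16.3 for CDK6 (12.7 to 20.7) and 9.70 for CCND2 (6.39 to 14.4). The interval of CCND1 was apart from that of every other member, while no other neighbours in this order had intervals that were apart. The pileup was 113 at CCND1 and 114 at CDK4, so their values differed through the local background, 0.726 against 1.69. The intervals leave out the counting error of that background. For 7 members the summit of this peak lay within 100 bp of the canonical TSS. It lay further away at CCNE1 (−555 bp), at CDK6 (914 bp) and at CCND3, where it was at a distal start site. With the canonical TSS alone, the value of CCND3 was 20.8 and the median over members 27.7.

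**Figure D2:**
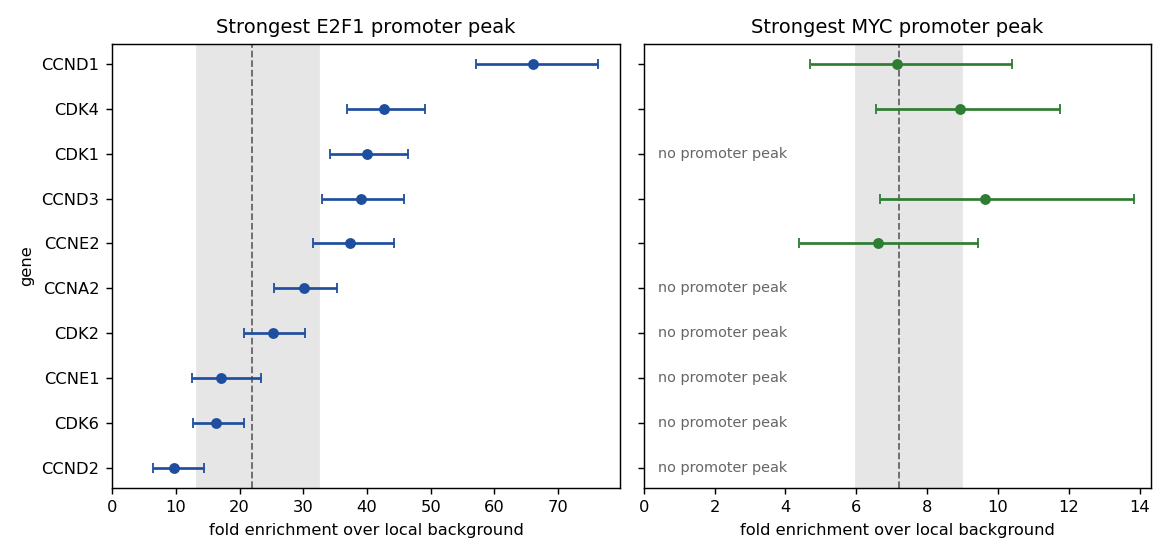
Fold enrichment (horizontal axis) of the strongest E2F1 (left) and MYC (right) promoter peak of each gene. Bars are exact 95% Poisson intervals of the pileup, scaled back to the depth of the ChIP library, which cover its counting error only. The dashed line and grey band are the median and quartiles over all protein-coding genes with such a peak, which are 22.0 for E2F1 and 7.22 for MYC at the median. CCND1 stands alone at 66.0 for E2F1, and the intervals of the 4 MYC values overlap one another.

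Among the D-type cyclins, CCND1 (chr11:69455924-69469242, plus strand, hg19), the cyclin that links mitogen signals to CDK4 and CDK6, carried 11 E2F1 peaks in its promoter windows. Only 0.0896% of protein-coding genes had as many, and these peaks covered 60.5% of the promoter windows of CCND1. The count depended on how the stretch was split, since joining peaks within 1 kb turned the 11 into 1 region, as it did the 7 of CDK6 and the 4 of CCNE2. The strongest had its summit at +28 bp, in the 5′ UTR of exon 1. Its neighbour upstream, at −254 bp, had a fold enrichment of 30.3 (24.4 to 37.4), and a peak at −2031 bp reached 18.0 (14.5 to 22.1). The other 8 E2F1 peaks lay between +1091 and +7272 bp in exon 2 and the introns, near start sites of shorter transcripts, with fold enrichments between 5.08 and 15.9. A gene body peak of 6.16 lay at the 3′ end of the gene.

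MYC had 2 peaks in the CCND1 promoter. At −6 bp its fold enrichment was 7.14 (4.69 to 10.4) and at −420 bp it was 5.01 (3.26 to 7.48), so the intervals overlapped. Each overlapped an E2F1 peak. The strongest MYC peak around CCND1 was further upstream, at −4514 bp and thus outside the promoter window, with a fold enrichment of 13.6 (10.3 to 17.7), the 96.8th percentile of all MYC peaks. E2F1 had a peak of 18.5 (14.1 to 23.5) there, with a summit at −4516 bp. This upstream peak was singled out after its values were seen. Fra-1 had no peak in the promoter or body of CCND1, and its nearest summit was 7086 bp from a CCND1 start site, just past the 3′ end of the gene (fold enrichment 5.60, 3.46 to 8.64), at an E2F1 peak of 15.7.

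2 stretches of CCND1 are shown for the letters under these peaks, read from GRCh37. The first is the 200 bases upstream of the canonical TSS, with the E2F word TTTGGCGC in capitals, and the second is the 101 bases around the MYC summit at −4514 bp, with the E-box CACGTG in capitals.
CCND1 promoter, chr11:69455724-69455923, plus strand: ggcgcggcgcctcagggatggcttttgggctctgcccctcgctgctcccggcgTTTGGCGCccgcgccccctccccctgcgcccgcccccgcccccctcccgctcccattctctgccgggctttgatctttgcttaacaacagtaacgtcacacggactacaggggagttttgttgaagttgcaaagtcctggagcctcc
CCND1 upstream MYC and E2F1 peak, chr11:69451360-69451460, plus strand: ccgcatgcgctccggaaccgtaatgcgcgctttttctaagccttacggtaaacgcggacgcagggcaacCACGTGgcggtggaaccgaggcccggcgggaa
The E2F word started at −147 bp and began 1 base after the end of the E2F1 peak at −254 bp, so it lay in none of the E2F1 peaks. The E-box lay within 50 bp of both the MYC and the E2F1 summit at the upstream peak, whereas none lay that close to the 2 MYC promoter summits.

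CCND2 (chr12:4378937-4414519, plus strand) and CCND3 (chr6:41902672-42018095, minus strand), the other D-type cyclins, differed from CCND1 and from each other. CCND2 had a single E2F1 promoter peak at +55 bp in the 5′ UTR, which covered 1.15% of its promoter windows. Its downstream flank held 2 E2F1 peaks, both in a promoter window of TIGAR and both of higher fold enrichment than the promoter peak. The interval of the first, at 24.9, was apart from that of the promoter peak, and that of the second, at 15.4 (11.6 to 20.3), overlapped it. No Fra-1 or MYC peak lay at the CCND2 locus, flanks included. Its nearest Fra-1 summit was 238280 bp from a CCND2 start site. The E2F1 promoter peak also fell in a window of a protein-coding gene without a symbol. CCND3 had 6 E2F1 promoter peaks in 2 places. Around the canonical TSS, E2F1 fold enrichments were 20.8 (17.0 to 25.1) at −324 bp, 17.2 (12.4 to 23.0) at +763 bp and 5.00 (2.75 to 8.54) at +1775 bp. Around start sites further upstream, between −106913 and −108805 bp, they were 39.1 (33.0 to 45.9), 18.1 (13.6 to 23.8) and 6.39 (3.84 to 10.1), all 3 within a promoter window of TAF8, a subunit of the general factor TFIID, so these peaks cannot be assigned to either gene.

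The CCND3 promoters carried 2 MYC peaks. The stronger, at +337 bp in coding exon 1, had a fold enrichment of 9.62 (6.68 to 13.8), the highest MYC promoter value among the members, and the other, at the TAF8 end, 7.72 (5.11 to 11.0). Their intervals overlapped, and each overlapped an E2F1 peak. In the gene body, 2 Fra-1 peaks lay in introns of the longer CCND3 transcripts, upstream of the canonical TSS. Their fold enrichments were 11.7 (8.84 to 15.3) and 11.4 (8.33 to 15.6), and E2F1 had peaks of 4.43 and 9.92 there.

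CDK4 (chr12:58141510-58149796, minus strand), a catalytic partner of the D-type cyclins, had its strongest E2F1 peak 55 bp upstream of the canonical TSS and 1 bp from the nearest start site of the gene. Its second E2F1 promoter peak, at −3666 bp, was weak, with a fold enrichment of 5.65 (3.39 to 8.90), and also lay in a promoter window of MARCHF9. MYC had 2 peaks inside the strong E2F1 peak. At −83 bp the MYC fold enrichment was 8.92 (6.55 to 11.7) and at +313 bp it was 7.04 (4.91 to 9.95), with overlapping intervals. No Fra-1 peak lay at the CDK4 locus, and the nearest Fra-1 summit was 229081 bp from a CDK4 start site. The E2F1 peak held the E-box CACGTG 5 times, and 2 of these matches lay in the MYC peak at −83 bp and 1 in that at +313 bp. Of all MYC promoter summits, 16.1% had this E-box within 50 bp, and of the 7 MYC promoter peaks of the members only that of CDK4 did. The match nearest to a MYC summit, 16 bp away, is shown with its E-box in capitals.
CDK4 E-box, chr12:58146177-58146206, minus strand: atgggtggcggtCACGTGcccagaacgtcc
The 30 bases are written in the direction of CDK4 and lie 44 bp from the E2F1 summit.

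CDK6 (chr7:92234235-92465887, minus strand), the other partner of the D-type cyclins, had a different arrangement. Its 7 E2F1 promoter peaks spread from −889 to +3570 bp with fold enrichments between 5.34 and 16.3, and no MYC or Fra-1 peak lay in its promoter windows. The E2F1 peak nearest to the canonical TSS, at +32 bp in the 5′ UTR, had a fold enrichment of 11.6 (8.59 to 15.5) and an E-box CACGTG at its summit, although no MYC peak was called there. Its 30 bases are shown with the E-box in capitals.
CDK6 E-box, chr7:92465840-92465869, minus strand: cgaggccgcggaCACGTGcggagagccgac
The E-box lay in the 250 bases upstream to 50 bases downstream of the canonical TSS at 2 of 10 members, CDK4 and CDK6, and at 8.76% of all protein-coding genes.

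**Figure D3:**
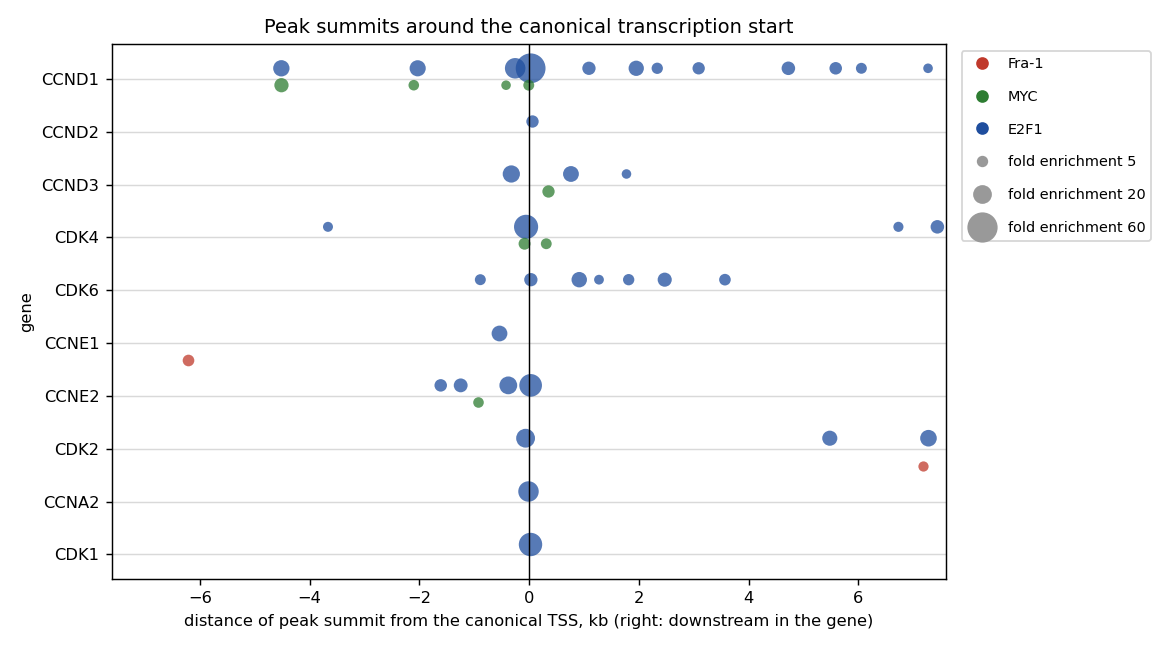
Summits of E2F1, MYC and Fra-1 peaks by their distance from the canonical TSS in kb (horizontal axis, downstream to the right) for each gene, with larger circles for higher fold enrichment. E2F1 summits spread over several kb at CCND1 and CDK6 but form a single peak at CCND2, CCNE1, CCNA2 and CDK1, and no Fra-1 summit lies within 2 kb of a canonical TSS.

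Within the body of CDK6 there were 13 E2F1 and 7 Fra-1 peaks, every one with its summit in an intron, and no MYC peak. Of the 1498 protein-coding genes of at least 200 kb, 25 had as many E2F1 body peaks and 115 as many Fra-1 body peaks. In order from the promoter, the Fra-1 fold enrichments were 6.91 (4.74 to 9.62) in intron 2, 10.0 (7.45 to 13.3), 9.35 (7.06 to 12.1) and 15.4 (11.0 to 21.4) in intron 3, and 12.1 (8.28 to 17.4), 8.90 (5.84 to 13.0) and 7.32 (5.20 to 10.2) in intron 5. The highest, 105043 bp from the canonical TSS, was at the 89.0th percentile of all Fra-1 peaks. The overlapping E2F1 peaks had fold enrichments of 5.02, 4.12, 3.84, 6.98, 9.28, 4.80 and 4.42 in the same order. The other 6 E2F1 body peaks, without Fra-1, had fold enrichments between 4.12 and 9.33, the highest in intron 4. The local background at CDK6 body peaks ranged from 0.939 to 4.99 for E2F1 and from 0.942 to 3.92 for Fra-1. Its medians over all peaks of these factors were 0.996 and 1.89. The part of the local background in the number of peaks was not tested.

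**Figure D4:**
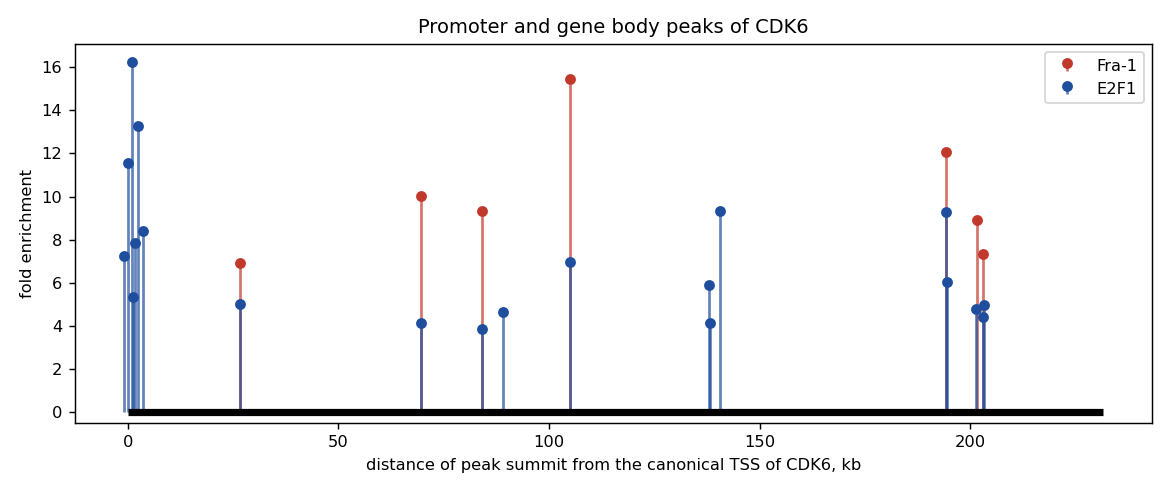
Fold enrichment (vertical axis) of the promoter and gene body peaks of CDK6 by the distance of the summit from the canonical TSS in kb, with the gene drawn as a black bar. The 7 Fra-1 peaks, between 6.91 and 15.4, all stand where an E2F1 peak of lower value is found, with overlapping counting intervals at 4 of the 7, and the E2F1 peaks are densest at the start of the gene.

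The 9 intronic Fra-1 peaks of CDK6 and CCND3 shared the AP-1 site, TGACTCA or TGAGTCA, within 50 bp of the summit. Over all Fra-1 summits outside promoter windows, 54.1% (53.2 to 54.9%, Wilson interval) had this site so close, and of all 20 Fra-1 peaks at the members 12 did. The 101 bases around each summit are shown from GRCh37, in the direction of the gene, with the distance of the summit from the canonical TSS and the AP-1 site in capitals.
CDK6 intron 2, 26681 bp, chr7:92439156-92439256, minus strand: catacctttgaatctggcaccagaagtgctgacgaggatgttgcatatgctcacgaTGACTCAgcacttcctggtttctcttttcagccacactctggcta
CDK6 intron 3, 69680 bp, chr7:92396157-92396257, minus strand: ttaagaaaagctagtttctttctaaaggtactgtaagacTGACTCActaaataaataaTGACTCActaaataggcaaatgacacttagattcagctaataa
CDK6 intron 3, 84153 bp, chr7:92381684-92381784, minus strand: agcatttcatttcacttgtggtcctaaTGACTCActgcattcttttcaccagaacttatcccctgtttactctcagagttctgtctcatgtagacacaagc
CDK6 intron 3, 105043 bp, chr7:92360794-92360894, minus strand: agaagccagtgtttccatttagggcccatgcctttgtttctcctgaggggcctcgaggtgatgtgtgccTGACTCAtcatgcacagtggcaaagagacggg
CDK6 intron 5, 194203 bp, chr7:92271634-92271734, minus strand: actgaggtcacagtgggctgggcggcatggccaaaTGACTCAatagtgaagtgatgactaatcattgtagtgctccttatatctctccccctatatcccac
CDK6 intron 5, 201520 bp, chr7:92264317-92264417, minus strand: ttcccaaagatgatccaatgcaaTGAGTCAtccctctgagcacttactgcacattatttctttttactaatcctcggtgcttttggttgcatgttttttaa
CDK6 intron 5, 203022 bp, chr7:92262815-92262915, minus strand: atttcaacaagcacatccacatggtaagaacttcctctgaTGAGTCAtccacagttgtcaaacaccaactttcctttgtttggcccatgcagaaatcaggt
CCND3 intron, −25372 bp, chr6:41934868-41934968, minus strand: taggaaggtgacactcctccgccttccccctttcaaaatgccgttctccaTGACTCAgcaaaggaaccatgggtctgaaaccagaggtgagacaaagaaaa
CCND3 intron, −35127 bp, chr6:41944623-41944723, minus strand: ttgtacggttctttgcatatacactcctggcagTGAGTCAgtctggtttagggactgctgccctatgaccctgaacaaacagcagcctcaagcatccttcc
The site was TGACTCA as written here at 6 of the 9 summits and TGAGTCA, the same site read on the other strand, at 3. The summit in intron 3 at 69680 bp had the site 2 times.

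All 9 of these peaks overlapped an E2F1 peak, as did 18 of the 20 Fra-1 peaks at the members and 61.5% of all Fra-1 peaks. At each of the 9, E2F1 fold enrichment was lower than that of Fra-1, but the counting intervals overlapped at 5 and were apart at 4, and the scale is only roughly comparable between factors. The AP-1 site lay within 50 bp of 7 of the 16 E2F1 body summits, against 26.2% of E2F1 summits outside promoter windows, and an E2F word lay near none of the 16 (0.770% of such summits). When each list was reduced to the length of the shortest, 5 of the 9 Fra-1 body peaks and none of the 16 E2F1 body peaks were kept.

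**Figure D5:**
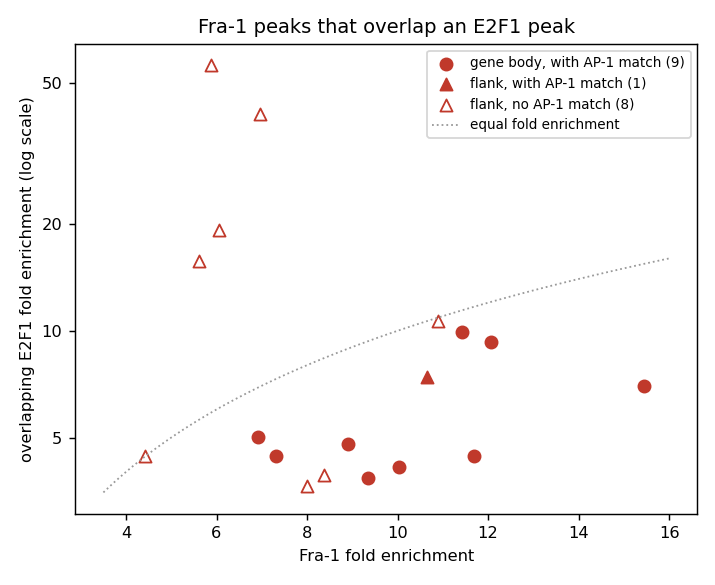
Fold enrichment of Fra-1 peaks at the members (horizontal axis) and of the E2F1 peak that overlaps each (vertical axis, log scale), as circles for gene body and triangles for flank peaks, filled where an AP-1 site lies within 50 bp of the Fra-1 summit. The 9 gene body pairs are all filled and lie under the dotted line of equal values, and the 2 pairs with the highest E2F1 values (56.1 and 40.9) are flank peaks without an AP-1 site.

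E-type cyclins and CDK2 had E2F1 near the start of each gene, MYC at CCNE2 alone and any Fra-1 peak outside their own promoters. CCNE1 (chr19:30302898-30315219, plus strand), which activates CDK2 at the G1/S transition, had 1 E2F1 promoter peak, 17.1 (12.5 to 23.3) at −555 bp, and no MYC peak in the locus. CCNE2 (chr8:95891998-95908906, minus strand), the other E-type cyclin, had 4 E2F1 promoter peaks with fold enrichments of 37.4 at +28 bp, 22.3 at −326 bp from its nearest start site, 12.7 at −1247 bp and 10.0 at −1611 bp. A MYC peak of 6.61 (4.37 to 9.42) lay at −930 bp and overlapped that of 22.3. All 5 of these peaks also fell in a promoter window of NDUFAF6, a gene for assembly of mitochondrial complex I, which starts from the same region. No Fra-1 peak lay at the CCNE2 locus.

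CDK2 (chr12:56360565-56366573, plus strand), the kinase partner of the E-type cyclins and cyclin A2, had 3 E2F1 promoter peaks. The one at −64 bp had a fold enrichment of 25.2 (20.7 to 30.3), that at +5481 bp 15.5 (11.8 to 20.2) and that at +7280 bp, past the end of the gene, 19.2 (15.6 to 23.4). The last overlapped a Fra-1 flank peak of 6.05 (3.43 to 9.56), and the nearest Fra-1 summit to any member start site was this one, at 2897 bp. MYC had no peak at CDK2. All 3 E2F1 peaks lay in a promoter window of PMEL and those at +5481 and +7280 bp also in one of RAB5B.

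CCNA2 (chr4:122737599-122745038, minus strand) and CDK1 (chr10:62538089-62554610, plus strand), the cyclin and kinase of S phase to mitosis, each had 1 broad E2F1 peak over the TSS and no other promoter peak. For CCNA2 the fold enrichment was 30.1 (25.5 to 35.2) at −16 bp, and for CDK1 40.0 (34.2 to 46.5) at +22 bp, in the 5′ UTR. The peak widths were 1453 and 1344 bp, against a median of 341 bp for E2F1 peaks in promoters. MYC was far away, with its nearest summit 1573587 bp from the CCNA2 start site and 871301 bp from a CDK1 start site. The nearest Fra-1 summits were at 33759 and 116499 bp.

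The promoter of CCNA2 held the CRE word TGACGTCA inside its E2F1 peak, as 2.08% of E2F1 promoter peaks did, and a CCAAT box, written ATTGG on this strand. That of CDK1 held the only E2F word found within an E2F1 promoter peak of any member. This was 1 of 37 peaks, against 6.58% of all E2F1 promoter peaks. The shares of 2.08% and 6.58% count words in whole peaks and were not matched for width. The median width was 574 bp for the 37 peaks and 341 bp for all E2F1 promoter peaks. These 200 bases of CCNA2, with both words in capitals, and 30 bases of CDK1, with the E2F word TTTCGCGC in capitals, are shown from GRCh37.
CCNA2 promoter, chr4:122745039-122745238, minus strand: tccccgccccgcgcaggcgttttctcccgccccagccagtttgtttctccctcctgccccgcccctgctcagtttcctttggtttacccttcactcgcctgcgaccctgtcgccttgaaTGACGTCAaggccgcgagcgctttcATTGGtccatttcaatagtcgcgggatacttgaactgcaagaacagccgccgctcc
CDK1 E2F word, chr10:62538097-62538126, plus strand: tttcctctttcTTTCGCGCtctagccaccc
The CDK1 word was centred at −124 bp, 146 bp from the summit.

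The E2F words searched were TTTGGCGC, TTTCCCGC, TTTCGCGC and TTTGCCGC, on both strands. They lay within 50 bp of 0 of the 37 E2F1 promoter summits of the members, against 2.10% of 25089 E2F1 summits in promoter windows of any gene. In the whole promoter windows of the 10 genes there were 5 such words, at CCND1, CCND2, CCNE1 and CDK1, of which 1 lay in an E2F1 peak. The CCNE1 word was 69 bp from the edge of the E2F1 peak. The CCAAT box lay within 50 bp of 8 of the 37 summits, at CCNA2, CCND1, CCND2, CCND3 and CDK2, against 10.2% of E2F1 summits in promoter windows. The word of the cell-cycle homology region, TTTGAA or TTCGAA, lay that near 2 of the 37 summits, at CDK1 and CDK2, against 4.83%. These matches describe letters in the windows and are not binding sites in themselves.

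All 7 MYC promoter peaks and all 10 MYC flank peaks at the members overlapped an E2F1 peak, as did 96.1% of all MYC peaks. The 4 members with a MYC promoter peak had strongest MYC values of 9.62 (CCND3), 8.92 (CDK4), 7.14 (CCND1) and 6.61 (CCNE2), with a median of 8.03, against 7.22 over all protein-coding genes with such a peak. The counting intervals of these 4 overlapped.

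In the flanks, 22 of 29 E2F1, 8 of 10 MYC and 5 of 11 Fra-1 peaks overlapped a promoter window of another annotated gene, coding or not. Over the whole lists, 25089 of 36901 E2F1, 4162 of 4857 MYC and 4567 of 17311 Fra-1 summits lay in promoter windows. That measure counts summits in a window of any gene, so it is not matched to the overlap of whole flank peaks. The strongest E2F1 flank peak, 56.1 (47.0 to 66.1), lay downstream of CCND1 in the promoter of LTO1. The strongest of MYC, 15.6 (12.3 to 19.8), lay upstream of CDK4 in a promoter window of METTL1 and EEF1AKMT3, and the strongest of Fra-1, 10.9 (7.16 to 15.9), downstream of CCND3 in one of MED20. Peaks of all 3 factors overlapped in 2 regions, both in a flank and both in the promoter of another gene. At chr11:69490167-69490268, in the LTO1 promoter near CCND1, the Fra-1 fold enrichment was 5.88, that of MYC 7.32 and that of E2F1 56.1. At chr7:92219692-92219804, in the FAM133B promoter near CDK6, they were 6.97, 6.61 and 40.9. E2F1 had the highest value in both, and neither Fra-1 summit had an AP-1 site within 50 bp. The 2 Fra-1 peaks at the members without an E2F1 peak, singled out after their values were seen, were 8.40 (5.19 to 13.0) upstream of CCNE1 at −6221 bp and 6.32 (3.56 to 10.3) upstream of CDK2 at −10588 bp, and each had an AP-1 site. The peak upstream of CDK2 lay in a promoter window of PMEL.

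Other regulators of the cell cycle and the cyclins and kinases of transcription were counted the same way. Of 16 other cell-cycle regulators, among them B-type cyclins, CDC25 phosphatases and the inhibitory kinases WEE1 and PKMYT1, 14 had E2F1 at the promoter, 5 had MYC and 1 had Fra-1. No factor was found at 2 of them, CCNA1, the germline cyclin A, and CDK3. Of 11 transcriptional cyclins and kinases, such as CDK9 with its cyclins, which act on RNA polymerase II, 11 had E2F1 at the promoter, 5 had MYC and 0 had Fra-1. None of the genes in either list had all 3, against 4.67% of all protein-coding genes. Over all protein-coding genes, 61.3% had E2F1 at the promoter, 17.8% had MYC and 13.2% had Fra-1. The median of the strongest E2F1 promoter peak was 35.9 in the first list and 37.6 in the second, beside 33.8 for the members. The 10 members had E2F1 and MYC promoter peaks in 10 and 4 of 10 cases, beside 14 and 5 of 16 and 11 and 5 of 11, and 1 library per factor gave no test of a difference. With a −log10 q of at least 5, MYC was left at 2 of the 16, 2 of the 11 and 4 of 10 members. Over all protein-coding genes it was left at 2553 of 20098. With a fold enrichment of at least 5, MYC was left at 5 of the 16, 4 of the 11 and 4 of 10 members, and at 3382 of the 20098 genes. Lists of equal length left the MYC list whole, as the shortest, so its counts of 5, 5 and 4 could not change.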

How the data were processed

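Lists of Fra-1, MYC and E2F1 ChIP-Seq peaks from LM2 cells were used (1 library each). The EZH2 and input samples entered no comparison, and other targets were not analysed here. Reads had been trimmed by the authors with Trimmomatic (0.27), aligned to hg19 with Bowtie (0.12.5) and used to call peaks per library with MACS2 (2.0.10.20120913, q-value cutoff 0.01) against 1 input. The signal deposited for each peak is the pileup at the summit, which MACS2 scaled towards the smaller library. The deposited fold enrichment divides the pileup by the local background, as a ratio with a pseudocount of 1, and the authors gave p- and q-values as −log10. The local background was calculated back from pileup and fold enrichment and is approximate.

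Genes and start sites were taken from GENCODE 44 mapped to GRCh37, on chromosomes 1 to 22 and X, and sequences from GRCh37. An overlap of at least 1 bp placed a peak in a zone, in the order promoter, gene body, flank. Peaks were counted in the same way for all 20098 protein-coding genes, which gave the background. Intervals of fold enrichment are exact 95% Poisson intervals of the pileup, and those of shares are Wilson intervals. Words were sought on either strand, at most 50 bp from a summit, and no word contains another. Zone assignment, overlaps and word searches were tested on simulated data.

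The members and gene lists were chosen with earlier results of these data known. All members were named with their strongest promoter peak of each factor, and other genes only from the 2 lists or where a strongest or shared flank peak lay in their promoter. RAB5B, PMEL, TAF8, NDUFAF6 and MARCHF9 were named after their peaks were seen. Alternatives were thresholds of −log10 q and fold enrichment, lists of equal length, other windows, flanks and overlap rules, the canonical TSS, merged peaks, other percentiles, other word windows and all annotated genes. Calculations were run in Python (3.11.15) with numpy (2.4.6), pandas (2.3.3), scipy (1.17.1), pysam (0.24.0) and matplotlib (3.10.9).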

Additional observations from a re-analysis of the deposited data

How the results depend on the processing

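Fra-1 stayed absent from the promoters of the members, and no member promoter had all 3 factors, under each alternative tried. For promoter counts these alternatives took fewer or merged peaks or smaller windows, so a count of 0 could not rise. Wider promoter windows and looser cutoffs were not tried. Of 238 recalculated counts and medians, 195 stayed within 1.5 times the reported count or within the counting interval, and 43 did not. The 195 include values that an alternative could not change. Examples are MYC counts with lists of equal length and promoter or gene body peak numbers with other flanks. With a −log10 q of at least 5, the other cell-cycle regulators had 0 Fra-1 and 2 MYC promoters, the transcriptional genes 2 MYC promoters, and 1 region had all 3 factors. A fold enrichment of at least 5 left 8 E2F1 body peaks. With lists of equal length, Fra-1 had 5 body peaks and 0 flank peaks at 0 members, E2F1 had 8 promoter peaks, 0 body peaks at 0 members and 7 flank peaks at 5 members, no region had all 3 factors (0), and Fra-1 had 0 promoters among the other regulators. Genes with a promoter, body or flank peak then numbered 690, 1446 and 3424 for Fra-1 and 5161, 377 and 6844 for E2F1. With the canonical TSS alone, MYC had body peaks at 1 and E2F1 at 5 members, the genes with a Fra-1 promoter numbered 1447 and those with a MYC body peak 879, and the median E2F1 promoter peak had a fold enrichment of 27.7 at percentile 89.0. Among bound promoters this percentile was 77.1. Flanks of 20 kb held 7 Fra-1 and 13 E2F1 peaks, and flanks of 100 kb held 50 E2F1 peaks. Outside other promoters, flank peaks were left at 1 member for MYC and 4 for E2F1. Merging within 1 kb left 14 E2F1 promoter peaks, and 50% overlap left 0 regions with all 3 factors. Over all annotated genes, 4560 had a Fra-1 promoter peak, and 24466, 12572 and 36319 had a flank peak of Fra-1, MYC and E2F1. The E-box was found in 2 MYC promoter peaks both within 100 bp and in the whole peak, the E2F word in 1 and the CCAAT box in 23 whole E2F1 promoter peaks. The alternatives changed the windows, peaks, genes, reference sets or overlap rules that were counted, and what lay behind each change was not tested. Of 56 values for single genes, 14 moved beyond counting error, most of them percentiles among bound promoters. No paired analysis was possible because each factor had 1 library. The input, shallower than each ChIP library after filtering, limits the precision of the local background.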
